A study of Mus musculus with 8 samples.

Results

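Complex I, NADH:ubiquinone oxidoreductase, is the entry point for electrons from NADH into the mitochondrial respiratory chain. It is built from nuclear-encoded and mitochondrially encoded subunits, with a matrix arm that oxidises NADH and a membrane arm that pumps protons, and assembly factors that are absent from the finished enzyme put it together from preformed modules. Hepatocytes are rich in mitochondria, and in liver complex I reoxidises the NADH made by fatty acid oxidation and the tricarboxylic acid cycle. The genes described here are the 48 rows whose symbol begins with Nduf, out of 13703 rows measured by bulk RNA sequencing of mouse liver. Of these, 37 encode complex I subunits and 8 carry Ndufaf names and encode assembly factors. Ndufa4 (a subunit of cytochrome c oxidase despite its name) and its paralogue Ndufa4l2 lie outside complex I, and Ndufb4c is a processed pseudogene. Because Ndufb4c lay below the filter at a mean of 0.5 FPKM (fragments scaled by gene length and by library total), 47 of the 48 genes were tested. The row named Ndufb1 has the length of the annotated gene Ndufb1-ps, 1153 bp.

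The livers came from Alb-Cre Bicd2fl/fl mice (4 libraries) and Alb-WT Bicd2fl/fl mice (4 libraries). Both groups carried the floxed Bicd2 allele and both received 2.5 mg of S-100, a liver extract in complete Freund's adjuvant, weekly for 3 weeks to induce autoimmune hepatitis. Liver was taken 2 weeks after the last dose. In Alb-Cre mice the albumin promoter drives the recombinase in hepatocytes. Bicd2 was measured in whole liver only, so its level in each cell type is not known. No library of mice without the disease model or without the floxed allele was used here. The sources used here give neither strain nor age nor whether each library was 1 animal, so p-values measure the spread between libraries, which may be technical.

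The libraries held 32524927 to 38893858 fragments on listed genes. Bicd2 itself, the dynein adaptor whose gene was floxed, averaged 0.628 ± 0.107 FPKM in Alb-Cre livers and 2.85 ± 0.288 FPKM in Alb-WT livers (SD, n = 4 each), with no overlap between the groups (exact two-sided permutation p = 0.0286, the smallest that 70 assignments allow). Alb-Cre replicate 4 stood apart from its group: across genes its correlation with the other Alb-Cre libraries was 0.9577 to 0.9598, and with the Alb-WT libraries 0.9741 to 0.9772, while the correlations among the remaining Alb-Cre libraries were 0.9945 to 0.9963. The hepatocyte markers Alb, Ttr, Apoa1, Hnf4a, Cyp2e1, Cps1, Ass1 and Tat summed to 42850, 43490, 44360 and 31910 FPKM across Alb-Cre replicates 1 to 4, against 41290 to 41940 FPKM in Alb-WT libraries. Alb was the largest part of these sums, at 19620 to 27570 FPKM in Alb-Cre libraries and 23740 to 24420 FPKM in Alb-WT libraries. Of the 8, 6 had negative and 2 positive log2 fold changes, with a median of -0.13. In 4 of them all Alb-Cre libraries lay below all Alb-WT libraries, against 21.4% of all tested rows. Of the 8, 2 were called lower, Cyp2e1 and Tat, against 23.3% of all tested rows. Macrophage markers were called lower in all 10 of 10 genes, with sums of 232.5, 230.4, 232.5 and 835.4 FPKM across Alb-Cre libraries, against 902.7 to 919.1 FPKM in Alb-WT libraries. In Alb-Cre replicate 4, however, Marco (125.4 FPKM) and Cd68 (35.55 FPKM) exceeded all Alb-WT libraries, which reached 90.4 and 32.29 FPKM. Lyz2 lay within the Alb-WT range in that library. All 4 neutrophil markers that were listed were lower as well, at sums of 6.62 to 81.0 FPKM in Alb-Cre libraries against 252.5 to 317.6 FPKM in Alb-WT libraries. No value of 0 is listed for any of the 13703 rows, so a listed marker could not stand at 0 in any library. In whole tissue, fewer cells of a type and less RNA per cell cannot be told apart, and the part of these cell types in the results below was not tested.

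A part of the nuclear genes of complex I rose in Alb-Cre livers. Of the 37 subunit genes, 16 rose at an adjusted p under 0.05 in a limma test of all genes on log2(FPKM + 1), none fell, and 21 did not pass. Of all 11077 tested rows, 8.48% were called higher and 23.3% lower. Where rows had to average 5 FPKM or more, 17 of 35 subunit genes were called higher, against 16.4% of the 4754 rows tested. Log2 fold change and mean FPKM had a Spearman rho of 0.352 across the 37 subunit genes and 0.246 across all tested rows. The part of level in the calls was not tested. Every subunit gene had a positive log2 fold change, Alb-Cre over Alb-WT, with a median of 0.28 and a range of 0.04 to 0.67, whereas the median over all tested rows was -0.13. At an unadjusted p under 0.05 by limma, 27 subunit genes were higher and 0 lower. The share of all tested rows at that unadjusted threshold was not counted, so these numbers have no background beside them. After adjustment, limma-voom on fragment numbers recovered from the FPKM called 18 subunit genes higher and 0 lower. In that fit 8.4% of all tested rows were called higher and 2886 of 11077 lower. All 4 Alb-Cre libraries lay above all 4 Alb-WT libraries in 13 subunit genes, against 9.27% of all tested rows. Of all calls, 73.3% were lower in Alb-Cre, and this share was 44.9% after a correction for gene length, 49.0% under median-of-ratios scaling, 48.6% after quantile normalization and 55.7% when rows had to average 5 FPKM or more.

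**Figure D1:**
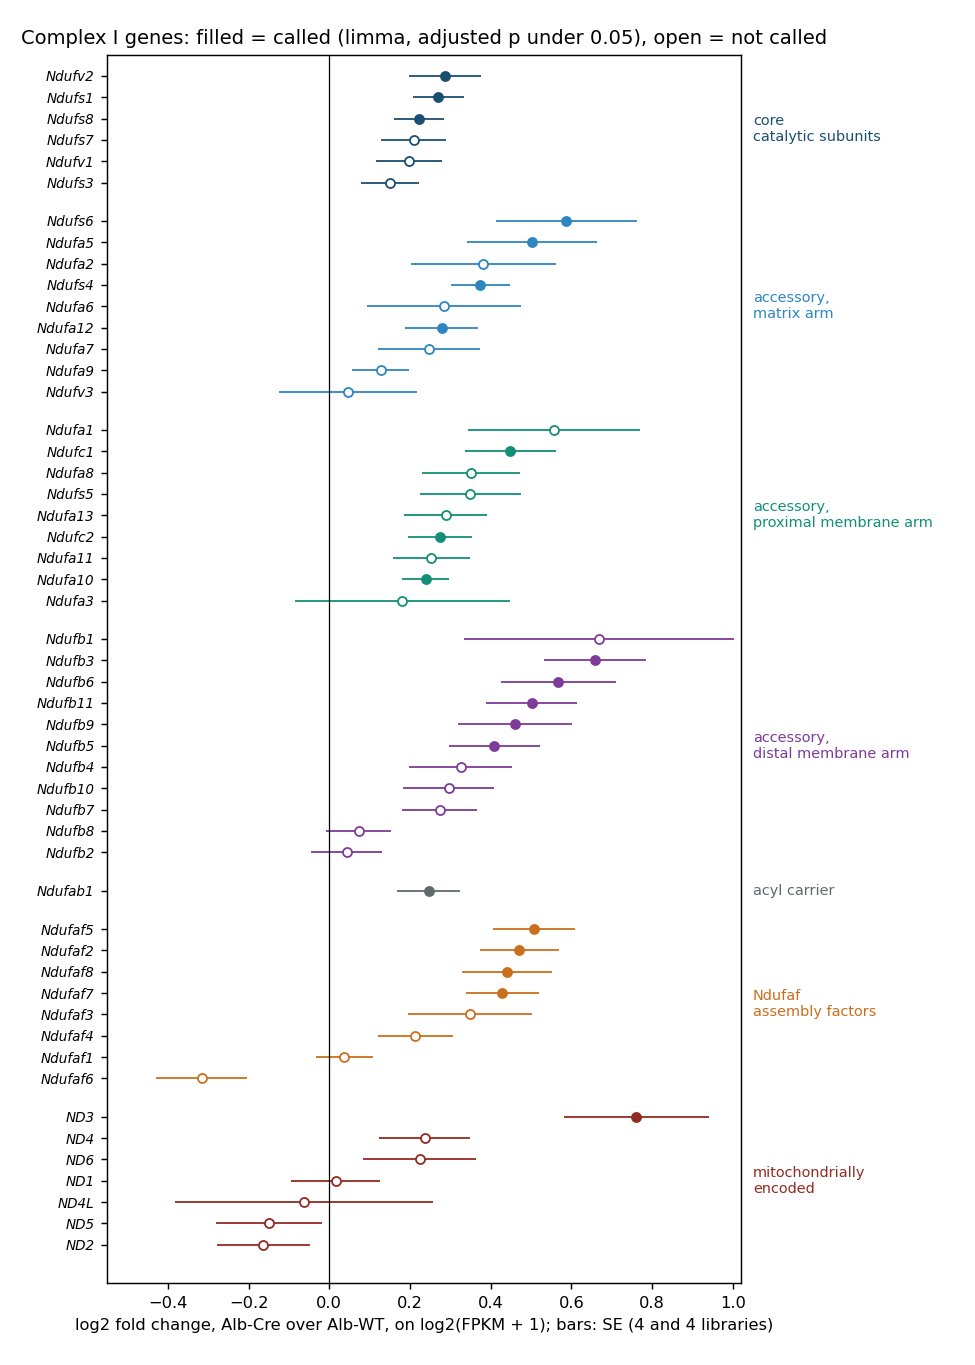
Log2 fold change of each complex I gene, Alb-Cre over Alb-WT on log2(FPKM + 1), with its SE as a bar, grouped by the place of the protein in the enzyme; filled points passed an adjusted p of 0.05 in limma. All 36 nuclear subunit genes plotted lie right of 0, Ndufaf6 lies left of it at -0.32, and the 7 mitochondrially encoded genes lie on both sides.

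The 37 subunit messages together summed to 2116, 1707, 2209 and 1877 FPKM in Alb-Cre livers, in the order of replicate numbers used throughout, and to 1409, 1627, 1392 and 1709 FPKM in Alb-WT livers. Alb-Cre replicate 2 lay just under the highest Alb-WT library on this sum, so the groups overlapped. Their levels per length spanned a wide range, with a median of 43.8 FPKM over the subunit genes against 3.89 FPKM over all tested rows. Ndufa1, a small subunit of the membrane arm, was the most abundant at a mean of 124.1 FPKM over the 8 libraries. Ndufb11 and Ndufa8 came next at 122 and 114 FPKM, and the ranges of all 3 genes over the libraries overlapped. The lowest were Ndufb2 at 0.711, Ndufb8 at 1.80 and Ndufab1 at 5.199 FPKM, each with a long gene model of 5628, 3146 and 6883 bp, against a median of 1569 bp for the subunit genes.

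The 7 core subunits, which carry the flavin, the iron-sulfur clusters and the quinone site and have counterparts in bacteria, had log2 fold changes within a narrow range, 0.15 to 0.29, with a median of 0.21, and 3 of 7 rose. Ndufs1, the largest subunit and part of the NADH-oxidising tip, had 10.7, 11.2, 10.6 and 10.3 FPKM in Alb-Cre livers and 8.93, 9.33, 8.39 and 8.17 FPKM in Alb-WT livers. The groups did not overlap, and its log2 fold change was 0.27 (SE 0.0632, limma adjusted p = 0.0156). Ndufs8, a carrier of iron-sulfur clusters between the tip and the quinone site, had 59.9, 57.0, 60.3 and 58.9 FPKM in Alb-Cre livers, all above the 52.2, 48.8, 47.3 and 53.7 FPKM of Alb-WT livers, with a log2 fold change of 0.22 (SE 0.0621, limma adjusted p = 0.0278). Ndufv2, which holds an iron-sulfur cluster of the NADH-oxidising tip, had 56.7, 53.6, 56.5 and 45.5 FPKM in Alb-Cre livers against 42.8, 47.6, 39.8 and 42.7 FPKM in Alb-WT livers. Only Alb-Cre replicate 4 fell within the Alb-WT range, and the log2 fold change was 0.29 (SE 0.0890, limma adjusted p = 0.0382).

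Ndufs7, Ndufv1 and Ndufs3 were not called. Ndufs7, which holds the last iron-sulfur cluster before quinone, averaged 33.9 ± 2.36 FPKM in Alb-Cre livers and 29.2 ± 2.57 FPKM in Alb-WT livers (SD, n = 4 each). For Ndufv1, the subunit that binds NADH and the flavin, the means were 50.6 ± 4.93 FPKM in Alb-Cre livers and 43.9 ± 2.56 FPKM in Alb-WT livers. Ndufs3, a scaffold of the quinone-reducing module, averaged 47.0 ± 2.99 FPKM in Alb-Cre livers and 42.2 ± 2.60 FPKM in Alb-WT livers. In these 3 genes the groups overlapped.

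Accessory subunits surround this core. In the matrix arm, 4 of 9 rose, with a median log2 fold change of 0.28. Ndufs4, whose loss in mice gives a Leigh-like encephalopathy, had 27.6, 25.1, 27.8 and 24.8 FPKM in Alb-Cre livers and 18.5, 21.1, 19.2 and 21.5 FPKM in Alb-WT livers. The groups did not overlap and the spread within each was small, at a log2 fold change of 0.37 (SE 0.0730, limma adjusted p = 0.00815). Ndufs6 (0.59), Ndufa5 (0.50) and Ndufa12 (0.28) also passed the test, on the same log2 scale. Ndufv3, a small partner of Ndufv1 and Ndufv2, was among the members that moved least, at 22.7, 16.8, 28.3 and 17.9 FPKM in Alb-Cre livers against 16.7, 24.0, 18.8 and 22.4 FPKM in Alb-WT livers. Its libraries were mixed in order, at a log2 fold change of 0.05 (SE 0.171).

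In the proximal membrane arm, 3 of 9 accessory subunits rose, with a median of 0.29. Ndufa10, a protein with the fold of a nucleoside kinase, had 43.0, 42.8, 46.5 and 43.4 FPKM in Alb-Cre livers and 35.3, 39.1, 36.7 and 37.2 FPKM in Alb-WT livers. These ranges were apart, and the log2 fold change was 0.24 (SE 0.0592, limma adjusted p = 0.019). Ndufc1 had 21.1, 16.5, 22.8 and 22.8 FPKM in Alb-Cre livers and 13.1, 16.4, 14.4 and 15.7 FPKM in Alb-WT livers, so that only Alb-Cre replicate 2 came close to the Alb-WT range (log2 fold change 0.45, SE 0.113, limma adjusted p = 0.0201). Ndufc2, its neighbour in the enzyme, had 89.9, 88.0, 82.9 and 73.4 FPKM in Alb-Cre livers and 71.3, 63.4, 68.8 and 71.5 FPKM in Alb-WT livers. Alb-Cre replicate 4 was lowest of its group, and the log2 fold change was 0.27 (SE 0.0803, limma adjusted p = 0.0323). Ndufa3 showed no order by group: it had 55.1, 26.4, 54.98 and 50.8 FPKM in Alb-Cre livers and 30.3, 48.1, 31.8 and 52.6 FPKM in Alb-WT livers, a log2 fold change of 0.18 with an SE of 0.266. Ndufa1, despite a log2 fold change of 0.56, was not called, with an SE of 0.213 and overlapping groups.

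The distal membrane arm held the subunits with the highest median, 0.41, and 5 of its 11 accessory subunits rose. Ndufb3, a small single-span membrane protein, had 88.4, 61.2, 82.3 and 65.3 FPKM in Alb-Cre livers and 46.4, 47.8, 40.7 and 50.2 FPKM in Alb-WT livers. Every Alb-Cre library exceeded every Alb-WT library, at a mean ratio of 1.61 and a log2 fold change of 0.66 (SE 0.126, limma adjusted p = 0.00757), the smallest p among the subunit genes. Ndufb11, an X-linked gene, had 154.9, 134.5, 159.5 and 123.9 FPKM in Alb-Cre livers and 94.8, 107, 87.1 and 114.8 FPKM in Alb-WT livers, without overlap (log2 fold change 0.50, SE 0.113, limma adjusted p = 0.0138). Ndufb6 had 82.5, 58.4, 84.9 and 81.9 FPKM in Alb-Cre livers and 48.1, 54.0, 43.2 and 60.3 FPKM in Alb-WT livers. Alb-Cre replicate 2 fell within the Alb-WT range, and the log2 fold change was 0.57 (SE 0.142, limma adjusted p = 0.0193). Ndufb5 had 14.7, 12.2, 13.4 and 10.2 FPKM in Alb-Cre livers and 8.06, 9.71, 8.96 and 10.1 FPKM in Alb-WT livers. Here replicate 4 of the 2 groups nearly met (log2 fold change 0.41, SE 0.113, limma adjusted p = 0.0271). The remaining call was Ndufb9, at 0.46. Ndufb1 had a larger log2 fold change of 0.67 but an SE of 0.334, with levels of 16.6 to 40.5 FPKM in Alb-Cre libraries and 12.03 to 27.2 FPKM in Alb-WT libraries. Ndufb8 and Ndufb2 were the flattest of this arm, at 0.07 and 0.04, and both were at low levels: Ndufb8 averaged 1.87 FPKM in Alb-Cre livers and 1.74 FPKM in Alb-WT livers, and Ndufb2 averaged 0.735 FPKM in Alb-Cre livers and 0.688 FPKM in Alb-WT livers. Ndufb6 shares 257 of its 659 annotated exon bases with Smim27 on the opposite strand, Ndufb5 shares 616 of 4995 with Mrpl47 on the opposite strand, and Ndufb9 shares 201 of 1031 with Gm49356 on its own strand. Other subunit genes overlap as well. Among them, Ndufb11 shares 117 of 908 with Rbm10, Ndufs1 489 of 8086 with Ino80dos and Ndufa13 375 of 1251 with Tssk6, all on the opposite strand. Since the sources used here do not give the strand setting of the counting, fragments of such pairs cannot be told apart.

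Ndufab1, the mitochondrial acyl carrier protein that also serves fatty acid synthesis and iron-sulfur cluster assembly, had 6.02, 5.39, 5.97 and 5.50 FPKM in Alb-Cre livers and 4.17, 4.96, 4.396 and 5.18 FPKM in Alb-WT livers. It rose in all 4 Alb-Cre libraries against all Alb-WT libraries, by 0.25 on the log2 scale (SE 0.0780, limma adjusted p = 0.0414).

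**Figure D2:**
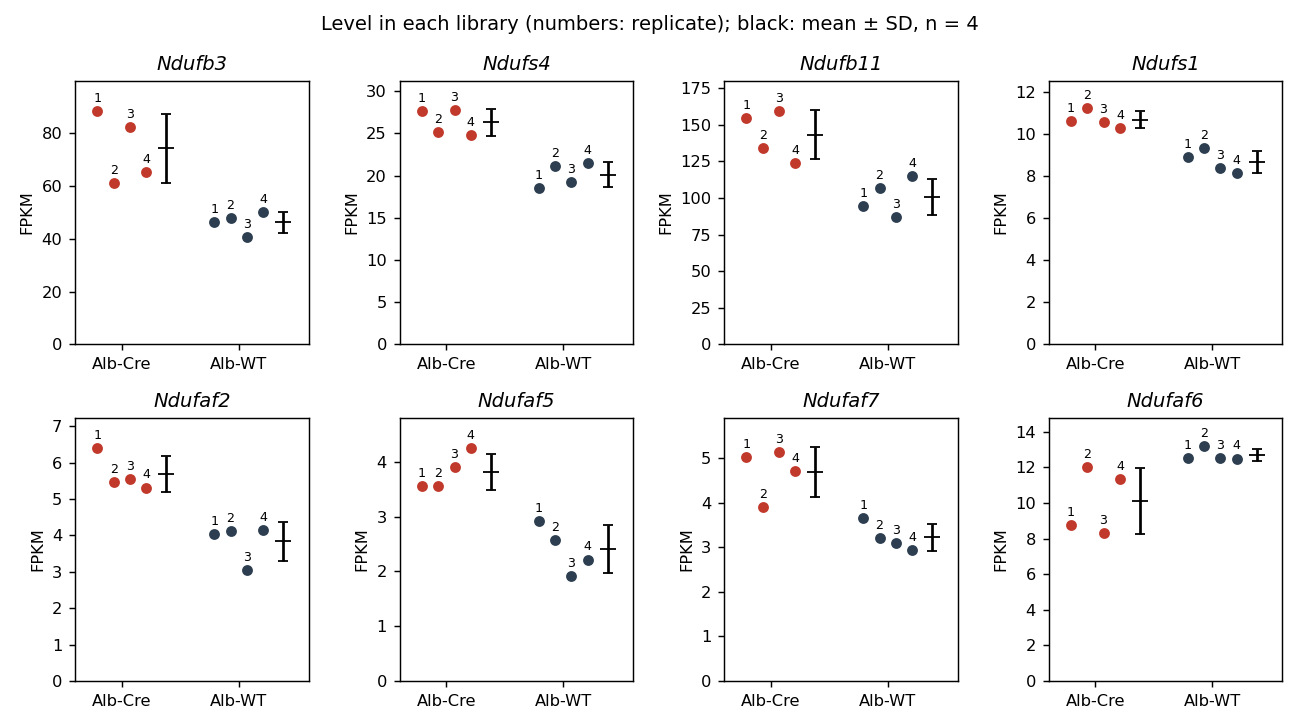
FPKM of 4 subunit genes (top) and 4 assembly factor genes (bottom) in each library, Alb-Cre left and Alb-WT right, with replicate numbers beside the points and the mean ± SD (n = 4) in black. In 7 of the 8 genes all Alb-Cre libraries lie above all Alb-WT libraries, and in Ndufaf6 all lie below. The genes plotted are a selection without overlap. All Alb-Cre libraries lay above in 13 of 37 subunit genes, 4 of 8 Ndufaf genes and 9.27% of all tested rows. They lay below in 1 of 8 Ndufaf genes and 21.4% of all tested rows.

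The 8 Ndufaf assembly factors were far less abundant than the subunits, with a median of 6.53 FPKM against 43.8 FPKM. Of the 8, 4 rose, against the 8.48% of all tested rows, and 0 fell, with a median log2 fold change of 0.39. At an unadjusted p under 0.05, limma found 6 higher and 1 lower, and limma-voom 4 higher and 1 lower. The share of all tested rows at that unadjusted threshold was not counted. After adjustment limma-voom called 4 higher and 0 lower, against 8.4% of all tested rows called higher. Their summed level was 75.3, 72.7, 71.8 and 66.9 FPKM in Alb-Cre livers against 60.8, 65.7, 59.2 and 62.9 FPKM in Alb-WT livers, without overlap. Set side by side, the subunit median lay 0.10 below the assembly factor median on the log2 scale. That difference was a description with no test, and it became 0.07 in the other direction when rows had to average 5 FPKM or more, which left out 3 of the 4 assembly factors that rose.

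The factors that rose act on the quinone-reducing module of the matrix arm or on its joining to the NADH-oxidising tip, as described mainly in human cells. Ndufaf5, which hydroxylates an arginine of Ndufs7, had 3.56, 3.56, 3.91 and 4.25 FPKM in Alb-Cre livers and 2.92, 2.57, 1.92 and 2.22 FPKM in Alb-WT livers. The lowest Alb-Cre library lay well above the highest Alb-WT library, at a log2 fold change of 0.51 (SE 0.102, limma adjusted p = 0.00914). Ndufaf8, its binding partner, had 16.3, 14.8, 14.2 and 11.7 FPKM in Alb-Cre livers and 10.4, 10.98, 8.57 and 10.9 FPKM in Alb-WT livers (log2 fold change 0.44, SE 0.111, limma adjusted p = 0.0203). Alb-Cre replicate 4 was the closest to Alb-WT in this gene. Ndufaf7, a protein arginine methyltransferase of early assembly, had 5.03, 3.90, 5.13 and 4.71 FPKM in Alb-Cre livers and 3.64, 3.21, 3.09 and 2.93 FPKM in Alb-WT livers. Again the groups were apart, with a log2 fold change of 0.43 (SE 0.0915, limma adjusted p = 0.0112). Ndufaf2, a paralogue of Ndufa12 that sits in its place on a late assembly intermediate, had 6.41, 5.47, 5.54 and 5.32 FPKM in Alb-Cre livers and 4.04, 4.11, 3.05 and 4.15 FPKM in Alb-WT livers (log2 fold change 0.47, SE 0.0969, limma adjusted p = 0.00984). Of its 2978 annotated exon bases, 1955 overlap the antisense gene B230220B15Rik, so part of its fragments may belong to that gene.

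Ndufaf2, Ndufaf5 and Ndufaf7 kept their calls when any 1 of the 8 libraries was left out, whereas Ndufaf8 kept its call in 3 of these 8 fits. The Ndufaf genes that did not pass included both partners of the early quinone-module factor pair. Ndufaf3 averaged 5.91 ± 1.17 FPKM in Alb-Cre livers and 4.41 ± 0.844 FPKM in Alb-WT livers, and Ndufaf4 averaged 8.55 ± 0.851 FPKM in Alb-Cre livers and 7.24 ± 0.770 FPKM in Alb-WT livers (SD, n = 4 each). Their log2 fold changes were 0.35 and 0.21, and in both genes the groups overlapped. Ndufaf1, part of the complex that builds the membrane arm, had similar levels of 18.7 ± 1.31 FPKM in Alb-Cre livers and 18.1 ± 0.939 FPKM in Alb-WT livers, with a log2 fold change of 0.04 that turned negative when libraries were rescaled to a common FPKM sum.

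Ndufaf6, a factor needed in human cells for early assembly around ND1, went the other way. It had 8.74, 12.04, 8.31 and 11.3 FPKM in Alb-Cre livers and 12.5, 13.2, 12.5 and 12.5 FPKM in Alb-WT livers. All Alb-Cre libraries lay below all Alb-WT libraries, as in 21.4% of all tested rows, but the log2 fold change of -0.32 (SE 0.112, limma adjusted p = 0.0587) did not pass. Replicates 2 and 4 were close to Alb-WT. Ndufaf6 was called lower without Alb-Cre replicate 2, where 1418 of 11077 tested rows were called lower. It was also called lower without Alb-Cre replicate 4, where 5112 of 11077 tested rows, or 46.1%, were called lower. Its direction was the same in all 18 alternative fits, at -0.40 to -0.16.

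Outside complex I, Ndufa4 was the most abundant Nduf-named gene, at 264.4, 228.8, 257.1 and 189.1 FPKM in Alb-Cre livers and 161.4, 195.5, 159.4 and 184 FPKM in Alb-WT livers. It rose by 0.42 on the log2 scale (SE 0.120, limma adjusted p = 0.0314), although Alb-Cre replicate 4 lay within the Alb-WT range. Ndufa4l2, a hypoxia-inducible paralogue, was at 1.00 to 1.61 FPKM in Alb-Cre libraries and 0.892 to 1.58 FPKM in Alb-WT libraries, and its log2 fold change of -0.08 took a positive sign under median-of-ratios scaling and quantile normalization. Ndufb4c had 1 to 10 fragments per library and was not compared.

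Libraries of 1 group differed in their subunit levels. On log2(FPKM + 1), the median deviation of the 37 subunit genes from the Alb-WT mean was 0.373, 0.172, 0.451 and 0.226 across the Alb-Cre libraries, against -0.109, 0.091, -0.103 and 0.126 across the Alb-WT libraries. Every Alb-Cre library was above every Alb-WT library on this median, as deposited and under the other scalings tried, except when libraries were rescaled to a common FPKM sum, where Alb-Cre replicate 2 was at 0.053, below Alb-WT replicates 2 and 4 at 0.070 and 0.114. Of the 37 subunit genes, 34, 17, 35 and 28 lay above all Alb-WT libraries in the Alb-Cre libraries, in the same order, against 22.4%, 20.7%, 22.8% and 34.4% of all tested rows. Alb-Cre replicate 2 was lowest of its group in 25 of the 37 subunit genes and in 32.9% of all tested rows, and replicate 3 was highest in 21 and in 14.6% of all tested rows. Among Alb-WT libraries, replicate 1 was lowest in 17 and replicate 3 in 14 subunit genes, against 22.2% and 21.1% of all tested rows, and replicate 4 was highest in 20, against 25.5%. Alb-Cre replicate 4, with a macrophage marker sum of 835.4 FPKM, a neutrophil marker sum of 81.0 FPKM and a hepatocyte marker sum of 31910 FPKM, had a subunit median of 0.226, and the part of these sums in it was not tested. For the Ndufaf genes the medians were 0.431, 0.378, 0.446 and 0.107 across the Alb-Cre libraries, against 0.003, 0.082, -0.129 and 0.009 across the Alb-WT libraries. Here Alb-Cre replicate 2 stood with replicates 1 and 3, and replicate 4 was the lowest of its group, just above Alb-WT replicate 2. That position depended on the scaling: replicate 4 fell within the Alb-WT range after the gene length correction, at 0.035 against a highest Alb-WT value of 0.061, after quantile normalization, at 0.067 against 0.101, and under median-of-ratios scaling, at 0.093 against 0.095.

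**Figure D3:**
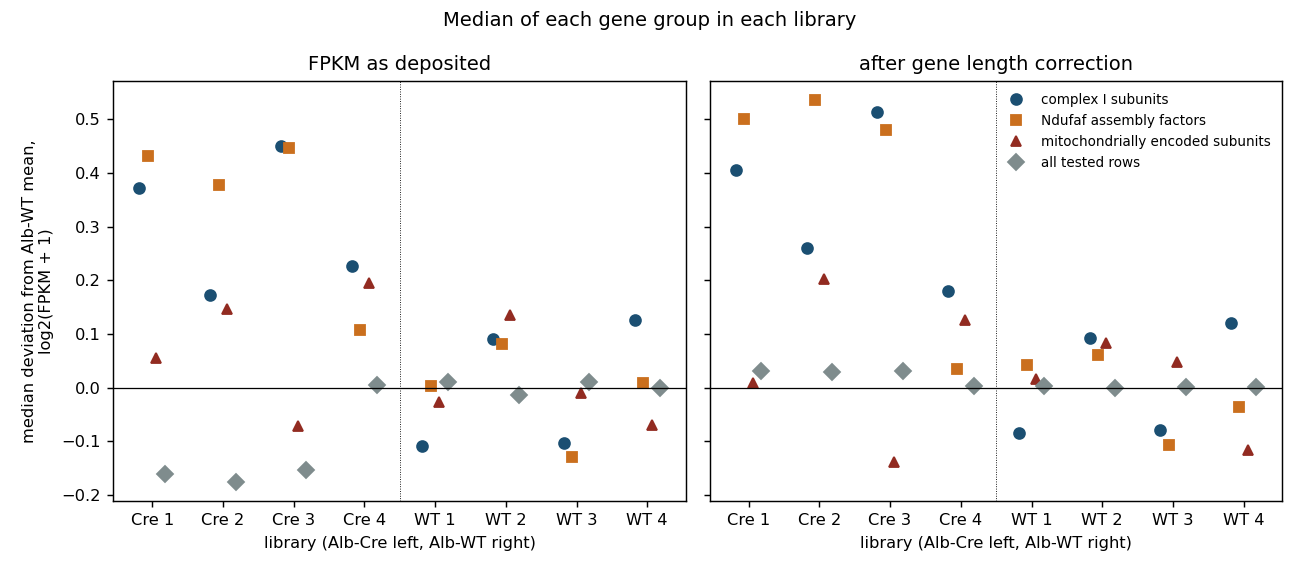
Median deviation of each gene group from the Alb-WT mean, on log2(FPKM + 1), in each library, Alb-Cre left of the dotted line and Alb-WT right of it; the left panel uses FPKM as deposited and the right panel FPKM after a correction for gene length. Subunits and Ndufaf genes are above all Alb-WT libraries in each Alb-Cre library in the left panel, and mitochondrially encoded genes are not.

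The count of calls rested on particular libraries. Without Alb-Cre replicate 4 it was 27 of 37 subunit genes, against 15.2% of all tested rows, and the 16 genes first called were among them. It dropped to 5 without Alb-Cre replicate 1, 4 without Alb-Cre replicate 3, 4 without Alb-WT replicate 1, 9 without Alb-WT replicate 2 and 3 without Alb-WT replicate 3, while the share of all tested rows called higher was 5.14%, 5.21%, 5.05%, 5.62% and 4.93% in the same fits. Ndufb3, Ndufs4 and Ndufb11 kept their calls in all 8 of these fits, and Ndufs1 in 7.

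**Figure D4:**
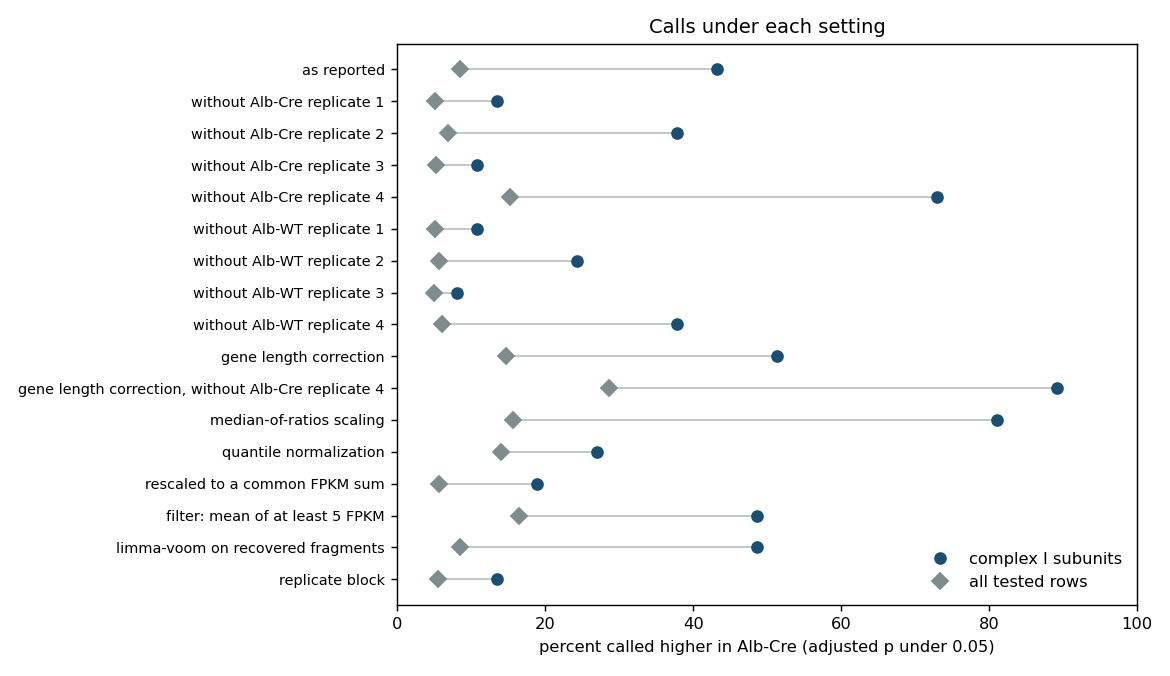
Percent of the tested complex I subunit genes (circles) and of all tested rows (diamonds) called higher in Alb-Cre at an adjusted p under 0.05, under the reported fit and the alternatives named on the axis. The subunit share runs from 8.11% without Alb-WT replicate 3 to 89.2% with the gene length correction and without Alb-Cre replicate 4, and lies right of the share of all tested rows in each fit shown.

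Gene length moved with these results. Subunit genes are short, with a median of 1569 bp of merged exons against 4234 bp over all tested rows, and 27 of the 37 lay in the shortest of 4 equal length classes, up to 2624 bp. In that class 15.3% of rows were called higher, against 2.71% in the longest class. Across the 37 subunit genes, log2 fold change and length had a Spearman rho of -0.615, and across all tested rows of -0.246. These are correlations across genes of the same libraries, which share depth and are no independent replicates. The rank correlation of each library's deviations with length was -0.207, -0.125, -0.247 and -0.0717 across the Alb-Cre libraries, against 0.251, 0.148, 0.275 and 0.0737 across the Alb-WT libraries, so that Alb-Cre replicate 3 stood at the low end of this order and Alb-WT replicates 1 and 3 at the high end, while in the subunit medians Alb-Cre replicate 3 was the highest library and Alb-WT replicates 1 and 3 the lowest. After a smooth length trend had been removed from each library, 19 of 37 subunit genes were called higher against 14.7% of all tested rows, 15 of them among the first 16, with Ndufc2 lost. With the length correction and without Alb-Cre replicate 4, 33 of 37 were called against 28.6% of all tested rows. Corrected subunit medians were 0.406, 0.261, 0.513 and 0.181 across the Alb-Cre libraries, against -0.084, 0.093, -0.078 and 0.121 across the Alb-WT libraries. Ndufs1, the longest subunit gene at 8086 bp, had a log2 fold change of 0.27 before and 0.46 after the correction.

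**Figure D5:**
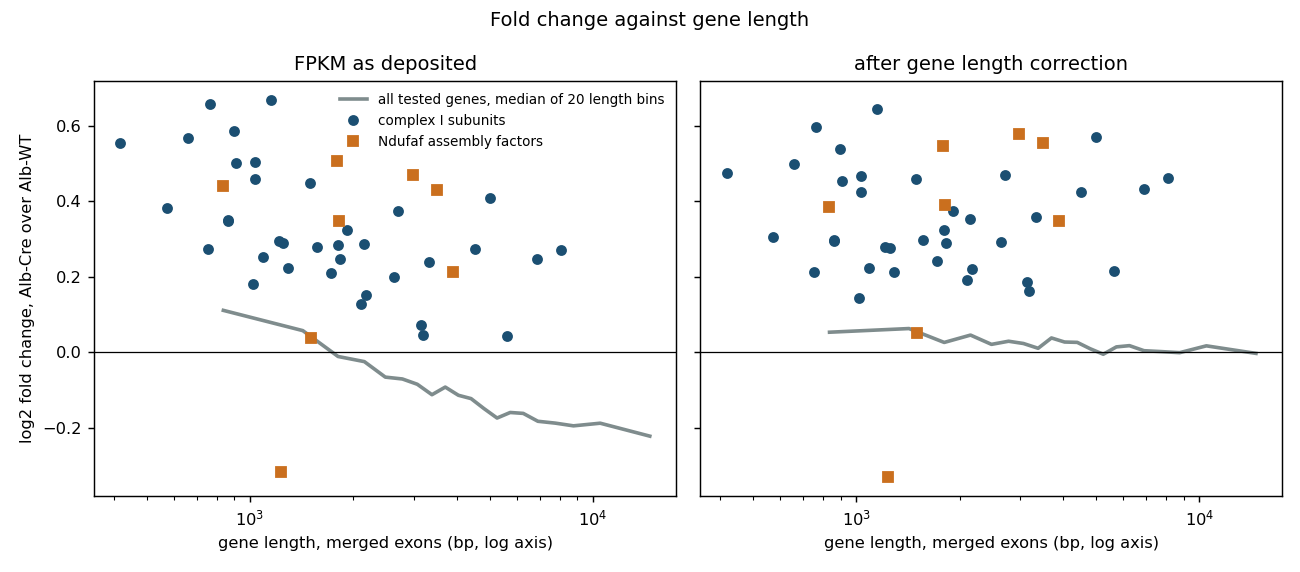
Log2 fold change of 36 subunit genes (circles) and Ndufaf genes (squares), Alb-Cre over Alb-WT, against merged exon length on a log axis, before (left) and after (right) a gene length correction; the line is the median of all tested genes in 20 length bins. The subunit genes slope downward with length in the left panel (rho -0.615), less so in the right panel (rho -0.153), and stay above the line in both.

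The 7 complex I subunits encoded in mitochondrial DNA, which form the proton-pumping core of the membrane arm, showed no common direction. Their log2 fold changes had a median of 0.02, 4 were positive and 3 negative, and 1 of 7 was called. Their summed level was 22810, 24580, 20470 and 23400 FPKM in Alb-Cre livers and 22470, 24810, 22740 and 21870 FPKM in Alb-WT livers, which overlapped. The one called was ND3, with 119.7, 153.6, 107.9 and 83.6 FPKM in Alb-Cre livers and 57.1, 80.2, 70.7 and 60.6 FPKM in Alb-WT livers, all Alb-Cre libraries higher (log2 fold change 0.76, SE 0.180, limma adjusted p = 0.0163). It is a very short gene, of 348 bp.

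Among other complex I assembly factors, 2 of the 9 listed rose, against 8.48% of all tested rows, with a median of 0.16. Timmdc1, which helps to join the proximal membrane arm, averaged 15.6 ± 0.571 FPKM in Alb-Cre livers and 12.7 ± 0.882 FPKM in Alb-WT livers, without overlap (log2 fold change 0.28, SE 0.0657, limma adjusted p = 0.0152). Nubpl, which delivers iron-sulfur clusters to complex I in human cells, averaged 2.03 ± 0.186 FPKM in Alb-Cre livers and 1.52 ± 0.160 FPKM in Alb-WT livers (log2 fold change 0.27, SE 0.0767, limma adjusted p = 0.0308). Genes of iron-sulfur cluster assembly, on which the matrix arm depends, rose in 4 of 13 cases, against the same 8.48% of all tested rows. Nfu1 and Bola3, which act together in late transfer of clusters to target proteins, had log2 fold changes of 0.42 (SE 0.0847, limma adjusted p = 0.0089) and 0.44 (SE 0.0905, limma adjusted p = 0.00993). Glrx5 and Hspa9 were the other two, and Hspa9 was at 0.03 and not called after quantile normalization, against 0.17 in the reported fit. In nuclear genes of complexes II to V, 24 of 41 rose, again against 8.48%, with a median of 0.34, for example Atp5g1 (0.47), which encodes the membrane ring of ATP synthase, and Cox7a2 (0.52), a small subunit of cytochrome c oxidase. Their median in each library, at 0.457, 0.191, 0.438 and 0.257 across the Alb-Cre libraries, against -0.116, 0.092, -0.097 and 0.117 across the Alb-WT libraries, ran close to that of the complex I subunits.

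Regulators of these genes were also examined. Of 12 genes listed as regulators of respiratory chain and mitochondrial genes, 4 fell and 1 rose, with a median log2 fold change of -0.19, against 23.3% and 8.48% of all tested rows. Ppargc1a, the coactivator PGC-1alpha, had 1.37, 1.41, 1.43 and 1.63 FPKM in Alb-Cre livers and 2.77, 3.35, 2.98 and 2.88 FPKM in Alb-WT livers. It was lower in all 4 Alb-Cre libraries, Alb-Cre replicate 4 included, at a log2 fold change of -0.70 (SE 0.0722, limma adjusted p = 0.000494). Yy1, a zinc-finger factor, had 9.47, 10.0, 10.2 and 10.4 FPKM in Alb-Cre livers and 11.9, 11.8, 11.7 and 11.4 FPKM in Alb-WT livers (log2 fold change -0.21, SE 0.0560, limma adjusted p = 0.0255). It was called in 7 of 18 alternative fits and its direction turned to 0.01 with the gene length correction and without Alb-Cre replicate 4. Nrf1 and Esrra, further factors of this list, fell by 0.27 and 0.33 on the log2 scale and were called in 6 and 7 of the 17 alternatives that tested them. The listed genes had a median length of 5186 bp. After the gene length correction, Ppargc1a was the 1 regulator called lower and Tfb1m the 1 called higher. In that fit 14.7% of all tested rows were called higher and 1325 of 11077 lower. The median of the list was then -0.03, and Nrf1 and Esrra stood at -0.07 and -0.18. Ppargc1a and Tfb1m were also the only regulators called under median-of-ratios scaling and quantile normalization. With the gene length correction and without Alb-Cre replicate 4, 4 of the 12 were called higher and 2 lower. That fit called 28.6% of all tested rows higher and 2529 of 11077 lower. Tfb1m, a mitochondrial rRNA methyltransferase, was the one that rose, by 0.35.

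Promoter windows from the RefSeq table of GRCm38.p6 were searched because the subunit genes had log2 fold changes of 1 sign. The windows reach from 250 bases before to 50 after each start, and 33 of the 37 subunit genes and 7 of the 8 Ndufaf genes had one. Exact matches on either strand were sought for GCGCATG (NRF1), CCGGAAG (ETS factors, bound by GABP) and AGATGGC (YY1), and no motif contains another. The NRF1 letters overlap their own reverse complement, and a window was counted once for each motif. The NRF1 letters were in 14.3% of 35 subunit windows, against 6.73% of windows of tested genes and 3.91% of all 32851 windows. For ETS the shares were 11.4%, against 17.7% and 8.86%, and for YY1 22.9%, against 7.35% and 6.40%. On the coding strand within the first 50 bases of the transcript, AGATGGC was in 7 of the 35 subunit windows, or 20%, against 2.31% of windows of tested genes and 1.14% of all windows. The planned search covered whole windows on both strands, and this narrower stretch was not part of it. It holds matches of the same genes, so the contrast is a description and was not tested. Subunit genes with and without the YY1 letters had median log2 fold changes of 0.23 (8 genes, 4 called) and 0.29 (25 genes, 10 called). For the NRF1 letters these were 0.28 (5 genes, 1 called) and 0.28 (28 genes, 13 called). For the ETS letters they were 0.25 (4 genes, 2 called) and 0.29 (29 genes, 12 called). A match describes letters in a window and no site of binding. AGATGGC holds ATG, the letters of a start codon. Matches on the coding strand early in a transcript may therefore mark translation starts, which was not tested.

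The 30 bases around each of these 7 matches are shown with AGATGGC in capitals, 5′ to 3′ on the strand of the gene, because they are the matches counted in that share. Within the 50 bases searched they began at base 24 to base 40 of the transcript. Further matches lay outside that stretch, at -239 in Ndufa3 on the other strand and at -170 in Ndufab1. Ndufs4 (chr13:114388045-114388074, minus strand, first base 37), Ndufs6 (chr13:73328433-73328462, minus, 35) and Ndufc1 (chr3:51408915-51408944, minus, 24) rose in Alb-Cre livers. Ndufs7 (chr10:80249462-80249491, plus, 26), Ndufa9 (chr6:126849097-126849126, minus, 31), Ndufb8 (chr19:44555393-44555422, minus, 40) and Ndufa3 (chr7:3617384-3617413, plus, 24) were not called.
Ndufs4: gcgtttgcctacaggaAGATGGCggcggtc
Ndufs6: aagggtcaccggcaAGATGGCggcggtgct
Ndufc1: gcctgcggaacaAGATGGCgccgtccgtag
Ndufs7: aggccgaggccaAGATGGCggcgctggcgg
Ndufa9: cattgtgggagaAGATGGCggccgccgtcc
Ndufb8: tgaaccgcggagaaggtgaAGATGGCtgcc
Ndufa3: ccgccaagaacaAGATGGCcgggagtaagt

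Of the Ndufaf genes that were not called, Ndufaf4 held the NRF1 letters at -113 and 2, and at -110 on the other strand. Ndufaf1, also not called, held the ETS letters at -18. Among the assembly factors that rose, Ndufaf8 held AGATGGC at base 12 of its transcript (chr11:120098933-120098962, plus strand) and the ETS letters at -8. Ndufaf5 held the NRF1 letters at base 17 (chr2:140170650-140170679, plus strand). The AGATGGC match of Ndufaf8 and this match of Ndufaf5 are shown here in capitals so that they can be set beside the subunit genes.
Ndufaf8: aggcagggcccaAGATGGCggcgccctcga
Ndufaf5: gtagtcccgttgGCGCATGcgcctaataga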

How the data were processed

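Total RNA from liver was made into Illumina libraries, per the labels' protocols, although the sample descriptions also name 10x Genomics. The authors deposited 1 table of FPKM values for 13703 rows and 8 libraries, fragments scaled by gene length and library total. The submitters' processing notes list HISAT2 2.0.5 and the builds hg38 and mm39 with no role. The sources used here do not give the counter, annotation or strand setting. FPKM normalization divides by gene length and library total, so a shift in a few abundant genes or in fragment length moves all values.

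From these values, log2(FPKM + 1) was tested with limma 3.58.1 (R 4.3.3, empirical Bayes with an intensity trend, two-sided, genotype as the only term, all 8 libraries) on 11077 rows that averaged 0.5 FPKM or more. Benjamini-Hochberg adjustment ran over all of these rows and calls were made at an adjusted p under 0.05. Fold changes on this scale understate those of genes near or below 1 FPKM. FPKM steps gave whole fragments for 100% of rows (tolerance 1e-06), from which depth was taken. Fragment numbers covered 99.1% to 99.3% of each library's scaling total. Gene lengths came from GENCODE M21 (GRCm38) where they matched the steps (12726 rows) and from the steps otherwise. Reference coordinates are of GRCm38, which is not a build named by the submitters, and none comes from the deposited table.

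The genes named in detail were Bicd2, every Ndufaf gene, the 7 core subunits, of the other subunits the 8 called with the smallest p and the 4 with the largest p, Ndufab1, Ndufa4 and Ndufa4l2, and in each other list up to 2 called genes with the smallest p (39 genes, with 1 gene not reported here). Members called besides these, regulators beyond those 2, the subunits at the ends of the level order, Ndufa1 and Ndufb1 were named after their values were seen. The members and lists were chosen with earlier results of these data known. Mitochondrially encoded genes were matched by their RefSeq names. The lists for T cells, B and plasma cells, endothelium, stellate cells and cholangiocytes had 0 of 5, 0 of 2, 2 of 5, 2 of 5 and 4 of 4 tested markers called lower, against 23.3% of all tested rows. Markers not listed in the table (Mpo, Ngp, Ltf and Camp among them) and Coa1 and Fdx2 were not analysed here. Both groups carry replicate numbers 1 to 4. Deviations of same-numbered libraries correlated at -0.0649, -0.0540, -0.0969 and 0.0131, so the numbers were not used to pair libraries. Alternatives were a pseudocount of 0.1 FPKM, no filter and a filter of 5 FPKM, 4 scalings, limma-voom, a replicate block and leaving out each library. The gene length correction without Alb-Cre replicate 4 was added after the data were seen. Windows, motifs and figures were made with Python 3.11.15 and matplotlib 3.10.9.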

Additional observations from a re-analysis of the deposited data

Results flagged for a closer look

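Within a group of 4 libraries, a library was picked out where its gap to the nearest other library took a share of the group's range above Dixon's 95% critical value. Of 82 such checks, 6 met this, and chance gives about 1 in 20. In Alb-Cre livers, Ndufb6 was low in replicate 2 at 58.42 FPKM (the others 81.9 to 84.9), Ndufa3 was low in replicate 2 at 26.45 FPKM (50.8 to 55.1), Ndufa10 was high in replicate 3 at 46.46 FPKM (42.8 to 43.4), and Ndufa4l2 was high in replicate 1 at 1.615 FPKM (1.003 to 1.064). In Alb-WT livers, Ndufaf2 was low in replicate 3 at 3.047 FPKM (4.04 to 4.15) and Ndufaf6 was high in replicate 2 at 13.2 FPKM (12.5 to 12.53).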

How the results depend on the processing

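All 37 subunit genes had positive log2 fold changes in the reported fit; Ndufv3 turned to -0.0365 when libraries were rescaled to a common FPKM sum, -0.0909 without Alb-Cre replicate 3 and -0.0412 without Alb-WT replicate 1 (-0.0909 to 0.1494 with 1 library left out). Ndufaf1 turned to -0.0453 with the common sum, Ndufa4l2 to 0.0099 under median-of-ratios scaling and 0.1296 after quantile normalization, and Yy1 to 0.0111 with the gene length correction and without Alb-Cre replicate 4. The causes were not tested.

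The number of subunit genes called higher, 16 as reported, was 30 under median-of-ratios scaling, 10 after quantile normalization, 7 with the common sum, 33 with the length correction and without Alb-Cre replicate 4, and 3 to 27 with 1 library left out. With a replicate block it was 5. The replicate numbers showed no pairing, and blocked values are given only as an alternative fit. No alternative called a subunit gene lower. Ndufaf genes called higher were 1 with the 5 FPKM filter, which tests fewer of them, and 4 as reported, against 16.4% and 8.48% of all tested rows. Ndufaf genes called lower were 0 to 1 with 1 library left out, and Ndufaf6 was the 1 called with the common sum and with the length correction and without Alb-Cre replicate 4. These last 2 fits called 3013 and 2529 of 11077 tested rows lower.

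The subunit median was 0.448 under median-of-ratios scaling. The Ndufaf median was 0.2131 with the 5 FPKM filter, 0.5254 under median-of-ratios scaling and 0.5174 with the length correction and without Alb-Cre replicate 4. The subunit median minus the Ndufaf median, -0.1048 as reported, was 0.0743 with the 5 FPKM filter and -0.2267 after quantile normalization. Relative to the median of all tested rows, the subunit median was higher by 0.410 as reported and by 0.244 after quantile normalization.

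Of all rows, 939 were called higher as reported, 1629 with the length correction, 1723 under median-of-ratios scaling, 1554 after quantile normalization, 623 with the common sum, 613 with the replicate block, 3169 with the length correction and without Alb-Cre replicate 4, and 546 to 1679 with 1 library left out. Lower calls were 2582 as reported, 981 with the 5 FPKM filter, 1325 with the length correction, 1656 under median-of-ratios scaling, 1469 after quantile normalization, 1631 with the block and 1205 to 5112 with 1 library left out. Bicd2 stayed lower and called in all 17 alternatives that tested it.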
